A study of Mus musculus with 18 samples.

Results

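Hearts of mice labelled MI (myocardial infarction) were compared with hearts of mice labelled control. The members were chosen by title alone: the 6 libraries titled MI and the 6 titled control, 12 of the 18 libraries of the series, with every fold change given as MI minus control. The other 6 libraries came from mice given HXP. They entered the shared estimate of the spread, the filter on low values and the reference of the median-ratio scaling described below. Each library was made from total RNA of heart tissue after removal of ribosomal RNA, and each held a value in FPKM (fragments per kilobase of exon, scaled to the number of mapped fragments) for 34150 genes. For both groups the labels give heart tissue and the group name. The labels do not give strain, sex, age, genotype, the way the infarct was made, the time from infarction to collection, the part of the heart taken or whether controls had a sham operation. The title of the series calls the infarction model acute, and its design text gives 6 for the n of each group of mice without stating outright that each library is 1 mouse, so the p-values here speak of the spread among libraries.

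A myocardial infarct kills heart muscle by loss of blood supply. The dead muscle is cleared by neutrophils and macrophages and replaced by a scar that fibroblasts lay down, while surviving cardiomyocytes (the contracting muscle cells) return in part to a fetal pattern of gene use. The adult heart draws most of its energy from fatty acids oxidised in mitochondria, so genes of that pathway are among the most abundant in its RNA. The classic stress genes and the extracellular matrix genes are the best known part of the response, and the values below deal mainly with genes outside both groups.

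The markers of infarcted tissue stood where the group names place them. Nppa, which encodes atrial natriuretic peptide, ran from 89.8 to 348 FPKM in control (median 151) and from 999 to 8497 FPKM in MI (median 3672). Postn, which encodes the scar protein periostin, ran from 2.31 to 4.14 FPKM in control and from 20.6 to 184 FPKM in MI. Comp, a cartilage matrix gene, ran from 0.279 to 1.501 FPKM in control and from 22.0 to 574 FPKM in MI. In all 3 genes each MI library lay above each control, as it did in 27.9% of the 13710 genes tested (9.99% after the median-ratio scaling described below), and MI 6 was the lowest MI library. The 10 defining cardiomyocyte markers summed to 12330 to 14870 FPKM in control and 8008 to 12680 FPKM in MI.

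The libraries MI 4 and MI 5 held markers of other tissues. The summed level of 11 lung epithelial markers was 1231 FPKM in MI 5 and at most 2.33 FPKM in the other MI libraries, and skeletal muscle markers summed to 96.9 FPKM in MI 4 while no other MI library passed 6.97. Atrial markers other than Nppa and Dkk3 summed to 6.99 to 10.8 FPKM in control and 9.72 to 13.8 FPKM in MI, with the atrial gene Bmp10 at 0 in all 12 libraries. Their part in the results below was not tested beyond leaving these libraries out. Read totals worked out from the smallest steps between FPKM values were 76.0 to 81.1 M over the 12 libraries. Mitochondrially encoded genes took 29.9% to 34.7% of the reads in control and 16.6% to 27.4% in MI, and 10516 to 10934 genes stood at 1 FPKM or more in control against 11298 to 12657 in MI. The headers of the files give each library a number. These numbers were split here into 3 runs, with a new run wherever the gap to the next number was over 50. The longest run contained control 3, 4 and 6 with MI 1, 2, 3, 4 and 6. Neither of the other runs had enough of both groups to be fitted alone.

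Whether more genes were higher or lower in MI depended on the scale. On the deposited FPKM, limma called 5494 of 13710 genes higher (40.1%) and 440 lower (3.21%), 43.3% in all, at a Benjamini-Hochberg adjusted p below 0.05. The median gene itself lay 0.27 higher in MI on the log2 scale. After median-ratio scaling, which divides each library by the median ratio of its genes to their geometric mean over the libraries, the median was -0.01 and the calls were 2257 higher (16.5%) and 2213 lower (16.1%). After quantile normalization they were 1810 higher and 2371 lower. All 2257 of those higher genes and all 440 of the lower genes on the deposited scale were called on both scales, so 16.5% of genes tested were higher on both scales and 3.21% lower, 19.7% in all. Of these, 2101 higher and 437 lower genes were outside the stress and matrix genes, with families such as Sfrp and Serpin counted as matrix. Calls below are those held on both scales unless the scale is named, fold changes are log2 on the deposited FPKM with the value after median-ratio scaling second where 2 are given, and adjusted p are those of limma on the deposited scale.

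The counts leaned on single libraries. Without MI 5, limma called 1248 genes higher and 127 lower on both scales. Without control 2 it called 1641 higher and 246 lower, and the lower count also fell by more than 1.5 times without MI 2 (231), MI 3 (274) or control 5 (282). Without MI 4 and MI 5 together, a setting added after seeing their marker sums, limma called 0 genes on the deposited scale (5998 of 13710 at an unadjusted p below 0.05, smallest adjusted p 0.0555) and 863 after median-ratio scaling. The same 10 MI and control libraries fitted without the HXP libraries gave 2670 higher and 598 lower on both scales. Within the longest run of library numbers 72 genes were called higher and 5 lower on both scales. Of the 207 genes named below by rule and called on both scales, all 207 kept their sign under each alternative tried. A call in the same direction on both scales was a condition here, and most alternatives shared most libraries with the main fit. The kept signs therefore say little on their own about these 207 genes. Of these, 145 stayed called on both scales without each library in turn, and 58 lost the call on at least 1 scale without MI 5. Below, the call of a gene ends without a library where it fails on either scale.

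The genes ranked here by fold change lay outside the stress and matrix groups and were restricted to those averaging 1 FPKM or more whose groups did not overlap, so the separation of the groups was a condition of entry. Genes with overlap, such as the antibody gene Igkc (4.28), are given with their own groups. Gene families counted with the matrix here, by name, included Sfrp, Angptl, Serpin and integrin genes. Sfrp2, with a larger fold change than any gene ranked here, and Itgbl1 were therefore left out. They too are given with their own groups. The 15 highest were mostly secreted and surface proteins. Cthrc1, a secreted protein of activated fibroblasts (ENSMUSG00000054196, GRCm38 chr15:39076932-39087121, plus strand), ran from 0 to 0.881 FPKM in control (median 0.170) and from 3.17 to 75.7 FPKM in MI (median 19.2). The log2 fold change was 3.92 (SE 0.69, adjusted p = 0.0127). MI 5 was the highest MI library and MI 6 the lowest, and without MI 5 the value was 3.52 (adjusted p = 0.0419). Frzb, a secreted protein that binds Wnt ligands (chr2:80411970-80447625, minus strand), ran from 0.682 to 1.66 FPKM in control (median 1.26) and from 4.71 to 72.2 FPKM in MI (median 31.9), a log2 fold change of 3.63 (SE 0.67, adjusted p = 0.0127). The growth factor gene Ptn (pleiotrophin, chr6:36714929-36810220, minus strand) ran from 0.650 to 1.39 FPKM in control and from 11.9 to 63.1 FPKM in MI, a log2 fold change of 3.62 (SE 0.63, adjusted p = 0.0127). Both genes were highest in MI 5, and the lowest MI library was MI 6 in Frzb and MI 2 in Ptn.

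**Figure D1:**
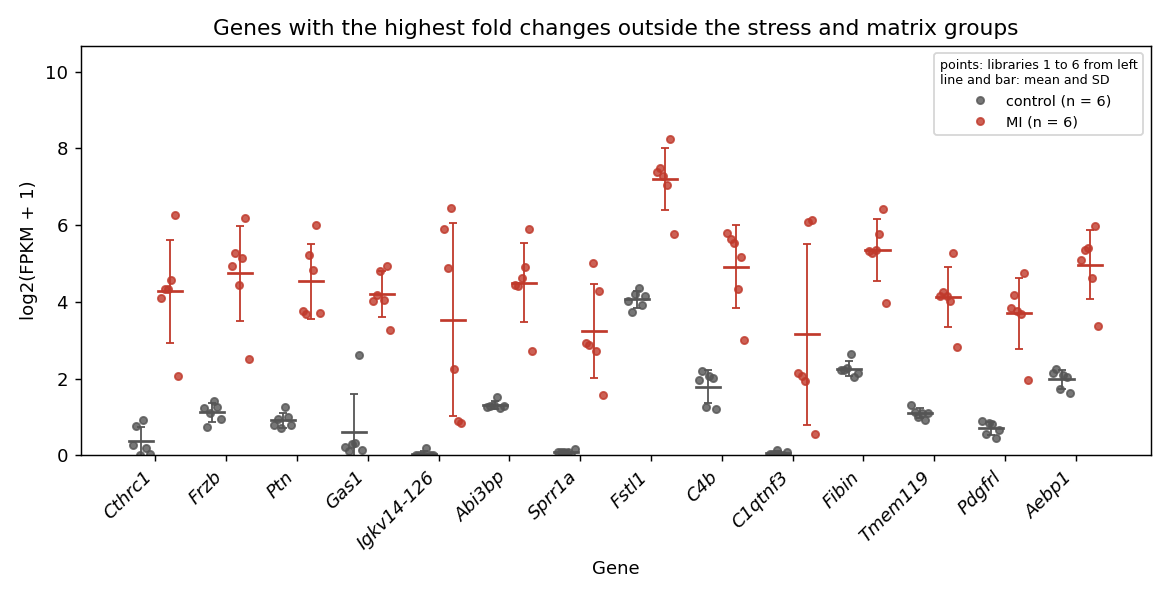
Levels of 14 of the 15 genes with the highest fold changes among genes outside the stress and matrix groups whose groups do not overlap, as log2(FPKM + 1) on the y axis, for 6 control (grey) and 6 MI (red) libraries. Points are libraries 1 to 6 from left, and the line and bar are the mean and SD. Separation of the groups was a condition of the choice; C1qtnf3 is split, with MI 4 and MI 5 (66.6 and 69.6 FPKM) far above the other MI libraries.

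Fstl1, a secreted follistatin-like glycoprotein (chr16:37776873-37836514, plus strand), was the most abundant of these genes, from 12.3 to 19.4 FPKM in control (median 16.1) and from 53.2 to 302 FPKM in MI (median 161). Its log2 fold change was 3.14 (SE 0.59, adjusted p = 0.0127). Gas1, a surface protein that binds hedgehog ligands, had a median of 0.204 FPKM in control and 16.3 FPKM in MI, and control 5 stood at 5.16 FPKM while the other controls were at most 0.241. Sprr1a, an epithelial gene that is also known from stressed cardiomyocytes, ran from 0 to 0.129 FPKM in control and from 1.96 to 31.4 FPKM in MI (log2 fold change 3.14, SE 0.62, adjusted p = 0.0137). C1qtnf3, a secreted relative of complement C1q, stood at 66.6 FPKM in MI 4 and 69.6 FPKM in MI 5 but at 0.474 to 3.42 in the other MI libraries and at most 0.101 in control. Its fold change of 3.10 was 2.51 without MI 5 (adjusted p = 0.0434). The carboxypeptidase-like protein Aebp1 (2.99), the complement gene C4b (3.13), and Fibin (3.10), Tmem119 (3.03), Pdgfrl (3.0) and Abi3bp (3.18) were called without each library in turn. Igkv14-126, a variable segment of the antibody light chain, had 3.50 (SE 1.28, adjusted p = 0.0372), and its call ended without any 1 of the 6 controls, MI 1, MI 2 or MI 3 (adjusted p up to 0.0844). Antibody segments resemble each other closely, so reads may have been split among them.

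The 15 lowest under the same restriction, which leaves out genes with overlap such as Ptgds (-0.98) and Acaa2 (-0.79), included cardiomyocyte, channel and mitochondrial genes. Ces1d, a carboxylesterase that hydrolyses lipids, ran from 32.7 to 43.9 FPKM in control (median 40.6) and from 7.51 to 29.7 FPKM in MI (median 10.3). The log2 fold change was -1.62 (SE 0.30, adjusted p = 0.0127) and -1.997 after median-ratio scaling. MI 6 stood at 29.7 FPKM, near the controls, and the other MI libraries at 13.5 or less. Ces1d belongs to a family of near-identical genes between which reads may have been split. Scn4b, a beta subunit of the cardiac sodium channel (chr9:45138395-45154152, plus strand), ran from 3.27 to 12.4 FPKM in control (median 6.93) and from 1.17 to 2.73 FPKM in MI (median 2.22), a log2 fold change of -1.38 (SE 0.33, adjusted p = 0.0142). Its controls fell apart by run: control 1, 2 and 5 stood at 8.91 to 12.4 FPKM and control 3, 4 and 6, of the longest run, at 3.27 to 4.94, so that the fold change was -0.79 within that run (adjusted p = 0.0688).

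**Figure D2:**
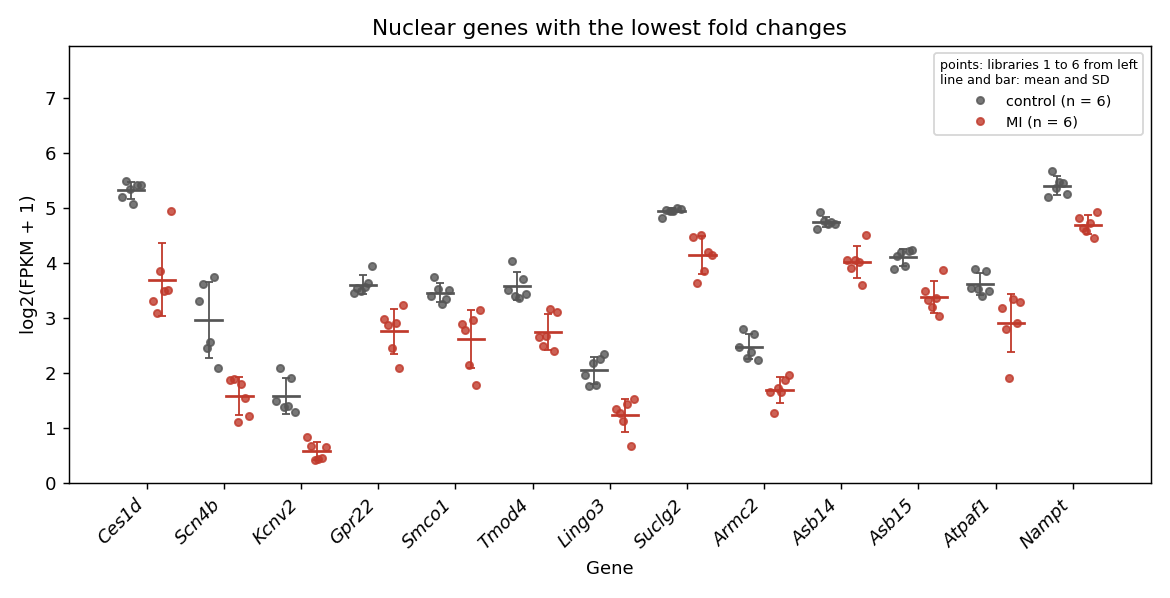
Levels of 13 nuclear genes among the 15 with the lowest fold changes whose groups do not overlap, as log2(FPKM + 1) on the y axis, for 6 control (grey) and 6 MI (red) libraries. Points are libraries 1 to 6 from left, and the line and bar are the mean and SD. Separation of the groups was a condition of the choice; MI 6 is the highest MI point for Ces1d, at 29.7 FPKM.

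Nampt, the rate-limiting enzyme of NAD salvage (chr12:32819545-32853349, plus strand), ran from 35.6 to 50.3 FPKM in control (median 41.4) and from 20.8 to 29.6 FPKM in MI (median 24.8). Its log2 fold change was -0.71 (SE 0.15, adjusted p = 0.0139) and -0.62 within the run (adjusted p = 0.0483). Each MI library lay below each control in 1.39% of all genes tested on the deposited scale and in 9.56% after median-ratio scaling. Suclg2, the GTP-forming subunit of succinyl-CoA ligase in the TCA cycle, ran from 27.4 to 30.8 FPKM in control and from 11.4 to 21.8 FPKM in MI (-0.81, SE 0.20, adjusted p = 0.0143). Gpr22, an orphan receptor of cardiomyocytes, ran from 10.03 to 14.4 FPKM in control and from 3.24 to 8.38 in MI (-0.85, SE 0.24, adjusted p = 0.0170). Kcnv2 (-1.01), the thin filament capping protein Tmod4 (-0.83), the muscle ubiquitin ligase adaptors Asb14 and Asb15 (-0.72 each), the ATP synthase assembly factor Atpaf1 (-0.71), Lingo3 (-0.82) and Armc2 (-0.79) were called without each library in turn. Smco1, a membrane gene of striated muscle, had -0.84 (SE 0.28, adjusted p = 0.0257), a call that ended without control 2, MI 3 or MI 5 (adjusted p up to 0.0678). The mitochondrial ribosomal RNA mt-Rnr2 had -1.003 (SE 0.28, adjusted p = 0.0158), and ribosomal RNA was depleted from these libraries.

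Genes that burn fatty acids were lower together. Of 28 genes of fatty acid uptake and beta oxidation, which cleaves fatty acids to acetyl-CoA in mitochondria, 18 fell on both scales and 0 rose, against 3.21% of all genes lower. All 28 had a negative fold change, with a median of -0.45 and -0.84 against 0.27 and -0.01 for all genes. Cd36, the fatty acid transporter, ran from 260 to 319 FPKM in control (median 289) and from 160 to 243 FPKM in MI (median 230). The log2 fold change was -0.44 (SE 0.13, adjusted p = 0.0195). Acaa2, the thiolase of the last step of beta oxidation, had the lowest fold change of the list, -0.79 (SE 0.26, adjusted p = 0.0274), and ran from 427 to 563 FPKM in control and from 168 to 457 in MI. In Acaa2 the groups overlapped through MI 6 alone, at 457 FPKM, while in Cd36 they did not overlap. The call of Acaa2 ended without control 2, MI 3 or MI 5, and that of Cpt2 without MI 2 or MI 5. The electron transfer flavoprotein subunit Etfb (-0.65), the dehydrogenase Hadh (-0.58), the acyl-CoA synthetase Acsl1 (-0.70) and the carnitine palmitoyltransferase Cpt2 (-0.53) fell as well. Without MI 5 the count on both scales was 0 of 28, with a median of -0.36 and -0.71, and Cd36, Etfb, Hadh, Acsl1 and Cpt2 had adjusted p of 0.0515 to 0.0590. It was 6 to 21 without any other 1 library, moving by more than 1.5 times without control 1, 2 or 5 or MI 1, 2 or 3. In the fit of MI and control libraries without MI 4 and MI 5 it was 21.

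The breakdown of branched-chain amino acids and the TCA cycle followed the same direction. Of 22 genes of branched-chain amino acid and ketone catabolism 10 fell and 0 rose (median -0.31 and -0.69). Aldh6a1, of valine breakdown, ran from 37.1 to 44.3 FPKM in control and from 18.99 to 33.9 FPKM in MI (-0.59, SE 0.15, adjusted p = 0.0146). Dbt (-0.54) and Bckdhb (-0.47), subunits of the branched-chain ketoacid dehydrogenase, were called without each library in turn. The ketone enzyme Bdh1 stood apart at 0.47 and did not pass (a gene chosen after its values were seen). The list's count was 3 without MI 5 and 6 without control 2. Of 25 genes of the TCA cycle and pyruvate dehydrogenase, which turn pyruvate and acetyl-CoA into reducing power, 8 fell and 0 rose (median -0.32 and -0.72). Mpc1, of the mitochondrial pyruvate carrier, ran from 25.1 to 34.7 FPKM in control and from 19.9 to 30.5 in MI (-0.43, SE 0.11, adjusted p = 0.0150). Sucla2 had -0.51 (SE 0.16, adjusted p = 0.0245), and 0.0640 without MI 5. This count ran from 1 without MI 5 to 15, and moved by more than 1.5 times without each library other than MI 3 and MI 4. Among nuclear receptors and coactivators of energy metabolism 3 of 16 fell (median -0.11 and -0.44): Esrrg (-0.37), Rxrg (-0.52) and Perm1 (-0.36). None of the 3 passed without MI 5 (adjusted p 0.0504 to 0.118), and Perm1 also did not pass without any 1 control, MI 1, MI 2 or MI 3.

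These genes are most active in cardiomyocytes, and cardiomyocyte markers moved with them. Of the 10 defining cardiomyocyte markers 0 rose and 2 fell, Pln and Tnni3 (median -0.35 and -0.74), against 3.21% of all genes lower. After median-ratio scaling alone 7 of the 10 were lower, against 16.1% of all genes. The lower count on both scales ran from 0 to 3. It moved by more than 1.5 times without control 2, control 4, MI 1, MI 2, MI 3 or MI 5. In bulk tissue fewer cells of a type and less RNA per cell cannot be told apart. Of 12 genes of creatine and adenine nucleotide handling 1 rose and 1 fell (median 0.02 and -0.34), against 16.5% and 3.21% of all genes. Gatm, the first enzyme of creatine synthesis, ran from 0.630 to 1.22 FPKM in control and from 1.37 to 3.97 FPKM in MI (0.92, SE 0.21, adjusted p = 0.0139), and was called without each library in turn. Creatine kinase Ckm, which buffers ATP in muscle, ran from 597 to 676 FPKM in control and from 319 to 557 FPKM in MI (-0.52, SE 0.18, adjusted p = 0.0314), a call that ended without control 1, 2 or 4 or MI 1, 2 or 5 (adjusted p up to 0.0810). Of 16 genes of lipid droplets and lipases 3 fell, Ces1d, the triglyceride synthase Dgat2 (-0.78) and the phosphatidate phosphatase Lpin1 (-0.40), and 0 rose. Lpin1 did not pass without control 1, 2, 3 or 6 or MI 1, 2, 3 or 5 (adjusted p up to 0.114). The part of the cardiomyocyte markers and of the mitochondrial share in these results was not tested.

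Glycolysis did not move as a block. Of 24 genes 4 rose, near the 16.5% of all genes higher, and 2 fell, against 3.21% of all genes (median 0.06 and -0.33). The 4 that rose were the platelet-type phosphofructokinase Pfkp (0.97), the lactate exporter Slc16a3 (1.16), the enolase Eno1 (0.68) and the mutase Pgam1 (0.73). The 2 that fell were the muscle hexokinase Hk2 (-0.40) and the heart lactate dehydrogenase Ldhb (-0.48). Pfkp ran from 2.33 to 4.24 FPKM in control and from 5.61 to 9.70 FPKM in MI, and Hk2 from 48.9 to 64.0 FPKM in control and from 37.0 to 51.0 FPKM in MI. The groups were separate in Pfkp and overlapped in Hk2. The higher count was 2 without MI 5 or without control 6, and the lower count, of 2 genes, was 4 without MI 6 and 1 without any other 1 library. The call of Ldhb ended without any 1 library other than MI 6, and that of Pgam1 without control 2, 3 or 6 or MI 3, 4 or 5.

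Genes that make amino acids and one-carbon units rose. Of 16 genes of serine, proline and asparagine synthesis, the mitochondrial folate cycle and their transporters 8 rose (median 0.60 and 0.34), against 16.5% of all genes, and 0 fell. Slc1a5, a glutamine transporter (chr7:16781340-16798274, plus strand), ran from 3.47 to 4.77 FPKM in control (median 4.32) and from 7.37 to 30.7 FPKM in MI (median 21.2). Its log2 fold change was 1.89 (SE 0.46, adjusted p = 0.0143). Phgdh, the first enzyme of serine synthesis (chr3:98313170-98339990, minus strand), ran from 0.123 to 0.334 FPKM in control and from 0.740 to 5.25 FPKM in MI (1.60, SE 0.40, adjusted p = 0.0146). In both genes each MI library lay above each control and MI 6 was the lowest. Mthfd2 of the mitochondrial folate cycle (1.28), and Aldh18a1 (1.11) and Pycr1 (0.82) of proline synthesis, rose as well. The other serine enzymes Psat1 (0.46), Psph (0.16) and Shmt2 (0.21) did not pass. The count was 6 to 9 without any 1 library.

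Pycr1 is shown because its promoter alone among 13 list members with a RefSeq promoter held the searched C/EBP-ATF element TGATGNAAT, which the stress factor ATF4 can bind. The element was found on either strand in 1.08% of 27025 promoters, each from 250 bases before the start to 50 after. The sequence is the 250 bases before the RefSeq start, minus strand of GRCm38.p6, chr11:120643749-120643998, with the match in capitals, first base 103 before the start.
Pycr1: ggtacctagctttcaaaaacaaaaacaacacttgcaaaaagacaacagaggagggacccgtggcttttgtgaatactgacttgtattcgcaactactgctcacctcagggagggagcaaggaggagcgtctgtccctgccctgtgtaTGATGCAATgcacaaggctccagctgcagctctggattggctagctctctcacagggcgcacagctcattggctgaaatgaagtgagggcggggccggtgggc
Among the stress response genes 0 of 25 promoters held it. In the lower metabolic lists, the estrogen-related receptor element TCAAGGTCA (0.466% of all promoters) was found in 0 of 23 fatty acid genes, 0 of 19 branched-chain genes and 1 of 22 TCA cycle genes. The shorter AAGGTCA, which lies within it, was in 5.38% of all promoters, 3.89% of those of genes tested, 1 of 23 fatty acid genes (Acadm), 0 of 19 branched-chain genes and 2 of 22 TCA cycle genes. A match is a run of letters and not a measured site.

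Cardiac channel genes moved in part. Of 24 potassium and pacemaker channel subunits 6 fell and 1 rose (median -0.16 and -0.52), against 3.21% and 16.5% of all genes. Kcnv2, a silent subunit that modifies potassium channels (chr19:27322588-27337179, plus strand), ran from 1.44 to 3.25 FPKM in control (median 1.72) and from 0.343 to 0.780 FPKM in MI (median 0.476). The log2 fold change was -1.01 (SE 0.20, adjusted p = 0.0136), and the groups did not overlap. Kcnip2, the partner subunit of the transient outward current, had -0.69 (SE 0.22, adjusted p = 0.0231, and 0.0603 without MI 5). The member that rose was Kcne4 (1.64, SE 0.36, adjusted p = 0.0139), an inhibitory subunit, from 0.656 to 1.58 FPKM in control and from 2.13 to 11.8 FPKM in MI. The lower count was 1 without MI 5 and 3 without control 5. Among 13 sodium channel and pump genes Scn7a (0.97, a channel subunit known from nerve and glia) rose and 2 fell, Scn4b among them. The call of Scn7a ended without any 1 control, MI 1, MI 2 or MI 5 (adjusted p up to 0.0542, and 0.0906 after median-ratio scaling). The lower count was 1 without control 1, 2, 3, 5 or 6 or MI 1, 2, 4 or 5.

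Calcium handling was mixed too. Of 26 genes 5 fell and 1 rose (median 0.06 and -0.28), against 3.21% lower and 16.5% higher of all genes. Jph1, a junctophilin that holds membranes at the calcium release site, ran from 4.20 to 5.59 FPKM in control and from 2.47 to 4.0 FPKM in MI (-0.47, SE 0.11, adjusted p = 0.0139). Trdn, of the calcium release complex, ran from 31.9 to 37.5 FPKM in control and from 19.5 to 28.6 FPKM in MI (-0.47, SE 0.13, adjusted p = 0.0151). Neither gene's groups overlapped, and both were called without each library in turn. The pump inhibitor Pln (-0.54), the pump Atp2a2 (-0.54) and Hrc (-0.52) fell with adjusted p of 0.0254 to 0.0493. Pln did not pass without control 2 or MI 5, Atp2a2 without any 1 library other than MI 6, and Hrc without any 1 control, MI 1, MI 2, MI 3 or MI 5. Fkbp1b, which binds the release channel, rose (0.86), with 1 to 3 genes higher without any 1 library (more than 1 without control 6, MI 3, MI 4 or MI 6), and had 0.271 FPKM in MI 6 within the control range of 0.140 to 0.290. The lower count of the list ran from 2 to 7 and moved by more than 1.5 times without control 1, 2, 3, 5 or 6 or MI 1, 2, 3 or 5.

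Receptors, junctions and identity factors of cardiomyocytes had few calls on both scales, where 16.5% of all genes were higher and 3.21% lower. After median-ratio scaling alone, 7 of 20 receptor genes and 7 of 18 transcription factors were lower, against 16.1% of all genes. The medians were 0.13 and -0.16 for the receptors and 0.08 and -0.27 for the transcription factors. Of 20 cardiac receptor and signalling genes the receptor kinase Grk5 (1.17, SE 0.27, adjusted p = 0.0139) and the G protein regulator Rgs4 (0.91, SE 0.24, adjusted p = 0.0151) rose and 0 fell. Grk5 ran from 4.80 to 9.34 FPKM in control and from 9.40 to 22.4 FPKM in MI, so the groups touched without overlap. Of 18 cardiomyocyte transcription factors Tbx20 rose (0.87; 0 higher without MI 5) and Prox1 fell (-0.36). Of 19 intercalated disc genes, which join cardiomyocytes end to end, 0 were called on both scales (6 higher on the deposited scale). Vcl, which anchors actin at junctions, had 0.36 on the deposited scale (adjusted p = 0.0166) and -0.005 after median-ratio scaling (adjusted p = 0.979).

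**Figure D3:**
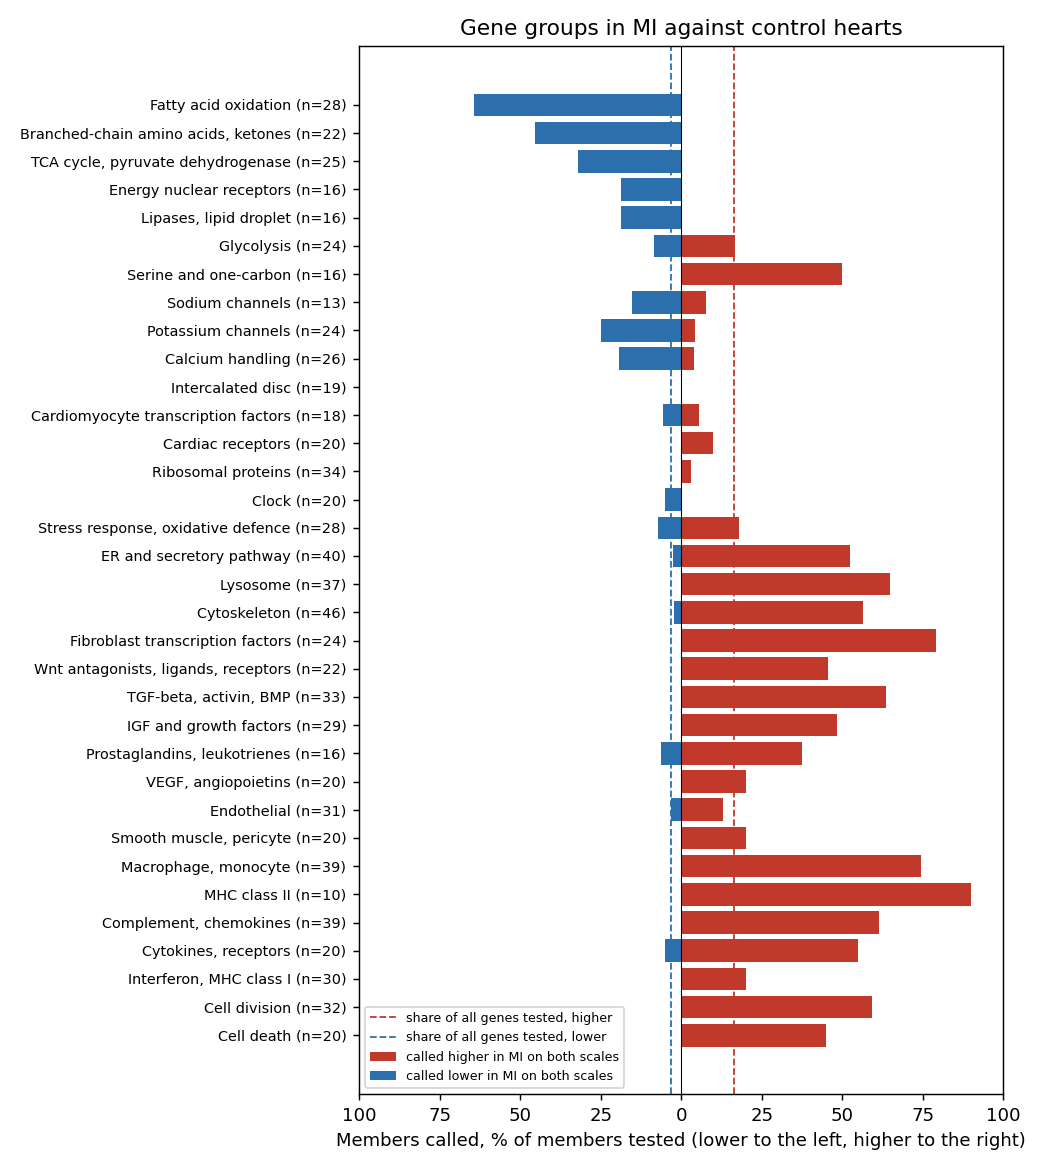
Share of tested members called on both scales in each gene group (x axis, % of members tested), higher in MI to the right in red and lower to the left in blue, with the number tested beside each name. Dashed lines mark the shares of all 13710 genes tested, 16.5% higher and 3.21% lower. Fuel catabolism, channels and calcium handling lie to the left, and signalling, immune and secretory groups to the right.

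Signals of the TGF-beta family rose at the level of ligands, receptors and inhibitors. Of 33 genes 21 rose and 0 fell (median 1.02 and 0.75). Tgfb3, a ligand that drives matrix production (chr12:86056745-86079041, minus strand), ran from 3.58 to 4.40 FPKM in control (median 4.01) and from 12.1 to 60.04 FPKM in MI (median 35.7). Its log2 fold change was 2.79 (SE 0.50, adjusted p = 0.0127), and each MI library lay at least 2-fold above each control. The ligand Tgfb2 (1.40) and the receptors Tgfbr1 (1.21) and Tgfbr2 (1.29) rose, while Tgfb1 (0.65) did not pass. The call of Tgfbr1 ended without any 1 library other than MI 6. Both activin subunits rose, Inhba and Inhbb (1.09 each), next to the activin antagonists Fst and Fstl3 (1.64 each). The feedback inhibitors Smad7 (1.06) and Skil (1.02) and the procollagen protease Bmp1 (1.71) rose too. The count was 17 without MI 5 and 18 to 24 without any other 1 library.

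Among Wnt genes the calls included secreted antagonists, receptors and the secreted agonist Rspo1. Of 22 genes tested 10 rose and 0 fell (median 0.55 and 0.31), and 14 of the 36 on the list were not tested: 13 had a mean below 0.5 FPKM and Dkk1 was not matched. The secreted antagonists Sfrp1 (3.08), Sfrp2 (5.37), Frzb and Sfrp4 (0.83) rose, as did the Frizzled receptors Fzd1 (1.93), Fzd2 (1.78) and Fzd7 (0.97). Fzd1 ran from 1.20 to 1.75 FPKM in control and from 3.39 to 18.8 FPKM in MI, without overlap. The remaining members that rose were Rspo1, Ror2 and Apcdd1, all called without each library in turn. None of the 4 ligands tested, Wnt5a (0.07), Wnt5b (0.34), Wnt9a (0.46) and Wnt11 (0.36), passed. The difference between antagonists and ligands was not tested. The call of Sfrp4 ended without MI 5, and that of Fzd7 without any 1 library other than control 5 and MI 6.

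Growth factors and their binding proteins were a further rising group. Of 29 genes 14 rose and 0 fell (median 0.71 and 0.41), and 9 rose without MI 5. Igfbp7, which binds insulin-like growth factors, ran from 36.5 to 57.9 FPKM in control (median 52.3) and from 94.0 to 370 FPKM in MI (median 248), a log2 fold change of 2.13 (SE 0.46, adjusted p = 0.0139). Midkine, a relative of pleiotrophin encoded by Mdk, ran from 0.826 to 1.48 FPKM in control and from 5.497 to 27.4 FPKM in MI (2.52, SE 0.57, adjusted p = 0.0139). The groups were separate in both genes. Igf1 (1.56), Igfbp3 (1.39), Igfbp6 (2.27) and the receptor Fgfr1 (1.47) rose (Igfbp6 not without control 2, MI 3 or MI 5), and the ligands Fgf1 (-0.02) and Fgf2 (-0.14) did not pass.

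Transcription factors and surface proteins of fibroblasts rose nearly throughout. Of 24 fibroblast and epicardial transcription factors 19 rose and 0 fell (median 0.99 and 0.73). Meox1, a homeobox factor of activated cardiac fibroblasts, ran from 2.51 to 5.56 FPKM in control (median 4.32) and from 12.8 to 42.9 FPKM in MI (median 23.7), a log2 fold change of 2.30 (SE 0.49, adjusted p = 0.0139). Twist1 (1.44), Prrx2 (1.16), Egr2 (1.20) and Creb3l2 (1.35), which drives secretory genes, rose too. Of 24 fibroblast surface and marker genes 19 rose and 0 fell (median 1.18 and 0.86), among them Itgbl1 (3.40), the collagen receptor subunit Itga11 (2.22) and Antxr1 (2.11). Mesothelial and epicardial markers rose in 11 of 12 (median 1.45 and 1.23), and Msln, mesothelin, ran from 0.0467 to 0.739 FPKM in control and from 3.21 to 16.6 FPKM in MI. Their sum was 20.02 to 37.7 FPKM in control and 79.3 to 270 in MI, where MI 4 and MI 6 were the lowest. These 3 counts were 16, 17 and 10 without MI 5.

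The cytoskeleton and the secretory pathway rose with them. Of 46 tubulins, actin regulators and intermediate filaments 26 rose and 1 fell (median 1.03 and 0.66). The 1 that fell was the tubulin Tuba8 (-0.49), with 0 lower on both scales without control 1, 2, 4 or 6 or MI 2, 3 or 5 and 2 lower without MI 4. Actn1, the non-muscle alpha-actinin, ran from 3.91 to 4.601 FPKM in control and from 6.97 to 32.8 FPKM in MI (1.79, SE 0.37, adjusted p = 0.0139). The filamin Flna (1.29) and the tubulins Tuba1a (1.36) and Tuba1c (0.82) rose, though alpha-tubulin genes are near-identical and may have shared reads. Of 40 chaperones and secretory genes 21 rose and 1 fell (median 0.72 and 0.37). The 1 that fell was Cdnf (-0.36), with 0 lower without control 2, 3 or 5 or MI 3, 4 or 5. Kdelr3, a receptor that returns proteins to the endoplasmic reticulum, ran from 2.87 to 4.15 FPKM in control and from 7.56 to 24.5 FPKM in MI (1.69, SE 0.38, adjusted p = 0.0139). The coat protein Sec24d (0.92) and the disulfide isomerase Pdia5 (1.16) rose as well. Without MI 5 the higher counts were 16 for the cytoskeleton and 13 for the secretory genes.

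Antibody genes varied widely among MI hearts. Igkc, the constant part of the kappa light chain (chr6:70726435-70726966, plus strand), ran from 1.52 to 13.2 FPKM in control (median 4.61) and from 7.85 to 651 FPKM in MI (median 142). The log2 fold change was 4.28 (SE 1.16, adjusted p = 0.0154). MI 3 was the highest library, and MI 6, at 7.85 FPKM, lay within the control range. Igha (3.0), Ighm (3.11) and Jchain (2.84), all of antibody-secreting cells, rose too, but the call of Jchain ended without control 1, MI 1, MI 2, MI 3 or MI 5 (adjusted p up to 0.0525), and that of Ighm without control 1, 2, 3, 5 or 6 or MI 1, 2 or 3 (up to 0.0632). Of 12 T, NK and B cell markers tested 4 rose, these antibody genes, and 0 fell. The count ran from 2 to 7 and moved by more than 1.5 times without control 1 or MI 1, 2, 3 or 6. The other 17 markers, among them the T cell genes Cd3d, Cd3e and Cd3g, had a mean below 0.5 FPKM.

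**Figure D4:**
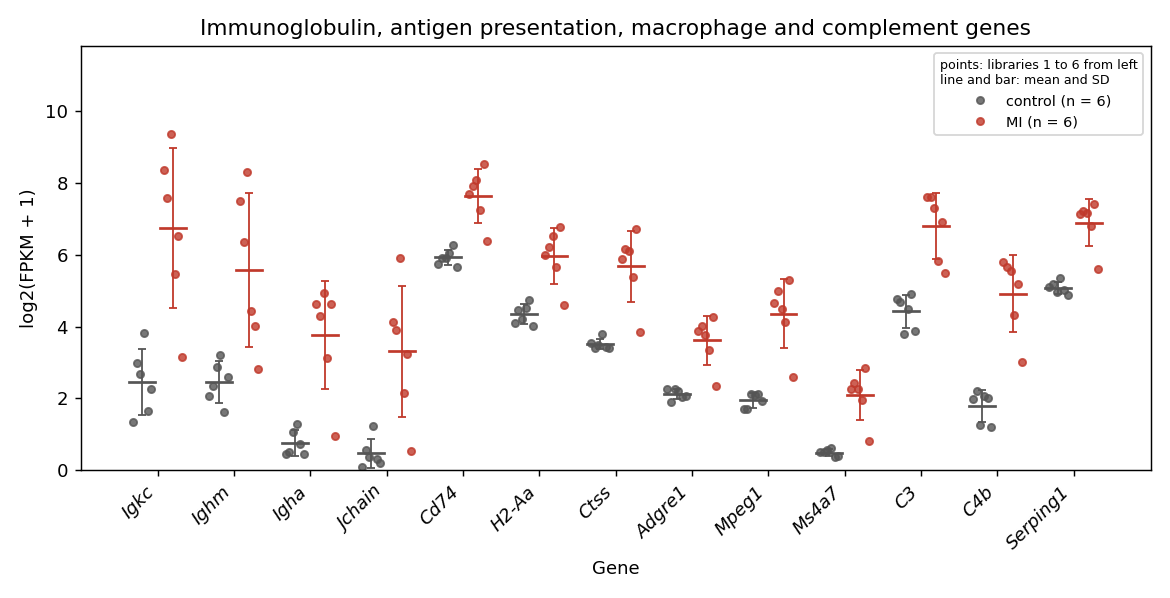
Levels of antibody, antigen presentation, macrophage and complement genes, as log2(FPKM + 1) on the y axis, for 6 control (grey) and 6 MI (red) libraries. Points are libraries 1 to 6 from left, and the line and bar are the mean and SD; the 13 genes were picked after their values were seen. MI 6 is the lowest MI point in each gene, and in Igkc, Ighm, Igha, Jchain and H2-Aa it lies among the controls.

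Macrophage genes, antigen presentation and complement rose, and MI 6 stood nearest to the controls in all 3 groups. Of 39 macrophage and monocyte markers 29 rose and 0 fell (median 1.24 and 1.00). Mpeg1, a pore-forming protein of macrophages, ran from 2.25 to 3.39 FPKM in control (median 3.03) and from 5.06 to 38.6 FPKM in MI (median 23.0), a log2 fold change of 2.42 (SE 0.56, adjusted p = 0.0139). Adgre1, the macrophage antigen F4/80, ran from 2.73 to 3.82 FPKM in control and from 4.10 to 18.4 FPKM in MI (1.49, SE 0.38, adjusted p = 0.0146). The mean of this list after median-ratio scaling was 0.15 in MI 6 and 0.63 to 1.19 in the other MI libraries, on the log2 scale relative to the control mean. The count was 13 without MI 5 and moved by more than 1.5 times without control 2, MI 2 or MI 3 as well (lowest 17). Of 10 MHC class II genes 9 rose and 0 fell (median 1.51 and 1.16). This count was 1 without MI 5 and 4 or more without any other 1 library, moving by more than 1.5 times without control 1, 2, 3, 4 or 6 or MI 1, 2 or 3.

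Complement and chemokine genes rose in 24 of 39 (median 1.14 and 0.85), and 0 fell. C4b, a complement component (chr17:34728380-34743882, minus strand), ran from 1.31 to 3.62 FPKM in control (median 2.98) and from 7.02 to 54.7 FPKM in MI (median 40.5), a log2 fold change of 3.13 (SE 0.73, adjusted p = 0.0139). C4b has a near-identical neighbour with which it may have shared reads. Serping1, the C1 inhibitor of the cascade, rose as well, from a median of 32.5 to 140 FPKM (1.81). The list's count was 15 without MI 5. Of 37 lysosomal genes 24 rose and 0 fell (median 0.85 and 0.50), and 13 rose without MI 5. Ctsk, a collagen-degrading protease, ran from 2.29 to 4.29 FPKM in control and from 7.64 to 72.5 FPKM in MI (2.75, SE 0.57, adjusted p = 0.0139).

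Among cytokines and their receptors 11 of 20 rose and 1 fell (median 0.83 and 0.61). Il33, an alarm signal released by damaged stromal cells (chr19:29925114-29960718, plus strand), ran from 0.537 to 1.69 FPKM in control (median 1.08) and from 2.57 to 24.4 FPKM in MI (median 6.78). Its log2 fold change was 1.93 (SE 0.49, adjusted p = 0.0147), and the groups did not overlap. The receptors Il1r1 (1.24), Tnfrsf1b (1.35) and Osmr (0.92) and the decoy receptor Tnfrsf11b (1.36) rose. The member that fell was Il15 (-0.53, SE 0.16, adjusted p = 0.0221), a growth factor of lymphocytes, from 6.02 to 8.96 FPKM in control and from 2.84 to 6.40 FPKM in MI, and the lower count was 0 without MI 5 or without control 2. Il1b, with 0.60, did not pass, and Il6, Tnf and Il10 had means below 0.5 FPKM. Of 30 interferon response genes 6 rose, near the 16.5% of all genes higher, and 0 fell (median 0.59 and 0.34). Stat2 (0.60) and Oasl2 (0.98) were among those that rose. The higher count ran from 1 to 8 and moved by more than 1.5 times without control 2, 3, 5 or 6 or MI 1, 2, 3 or 5. Of 11 neutrophil, eosinophil and mast cell markers Csf3r alone rose (0.66, adjusted p = 0.0324), not without any 1 control, MI 1, MI 2, MI 3 or MI 5 (up to 0.0813). The neutrophil genes S100a8 (0.00) and S100a9 (0.21) did not pass.

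Endothelial identity genes moved little beside these groups. The median of 31 genes was 0.35 and -0.04, against 0.27 and -0.01 for all genes. Among them 4 rose and 1 fell, near the shares of all genes (16.5% higher and 3.21% lower). The 4 were the fenestral protein Plvap (1.83), the adhesion molecules Vcam1 (1.02) and Icam1 (1.14), and the venous factor Nr2f2 (0.71), and the 1 was Cd36. Plvap ran from 2.65 to 5.56 FPKM in control and from 6.77 to 37.3 FPKM in MI. The higher count was 1 to 4 and moved by more than 1.5 times without control 2, control 6, MI 2, MI 3 or MI 5. The call of Plvap ended without control 2, control 6, MI 3 or MI 5. Of 20 VEGF and angiopoietin genes the ligand Vegfd (1.52), the vessel destabilising ligand Angpt2 (1.06), Esm1 (0.77) and the lymphatic receptor Flt4 (0.74) rose and 0 fell, Flt4 not without any 1 library other than MI 6. Vegfa (-0.10) and its receptor Kdr (0.01) did not pass on the deposited scale. The 4 of 20 VEGF and angiopoietin genes that rose are near the share of all genes higher, 16.5%. Of 7 lymphatic markers Pdpn (2.16), Thy1 (1.17), Ccl21a (1.69) and Flt4 rose and Prox1 fell. Pdpn and Thy1 are also made by fibroblasts, and Prox1 by cardiomyocytes. The higher count was 2 to 4, lower than 3 without control 1, 3, 5 or 6 or MI 1, 2, 3, 4 or 5.

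Of 20 smooth muscle and pericyte markers 4 rose, near the 16.5% of all genes higher, and 0 fell (median 0.47 and 0.16). Pdgfrb, the receptor of pericytes and fibroblasts, ran from 10.7 to 15.6 FPKM in control and from 19.1 to 41.6 FPKM in MI (1.13, SE 0.30, adjusted p = 0.0151). Mcam rose by 0.88, and Acta2 (1.12) and Tagln (1.53), contractile genes of smooth muscle and myofibroblasts, rose, but Acta2 not without control 2, 4, 5 or 6 or MI 1, 2 or 5, and Tagln not without control 1, 2, 3, 5 or 6 or MI 1, 2, 3 or 5. The count ran from 2 to 5 and moved by more than 1.5 times without control 2, 5 or 6 or MI 1, 2 or 5.

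Cell division genes rose at low levels. Of 32 genes tested 19 rose and 0 fell (median 0.59 and 0.38), and 12 of the 44 on the list had a mean below 0.5 FPKM. Mcm6, a subunit of the helicase that opens DNA for replication, ran from 1.08 to 1.80 FPKM in control (median 1.41) and from 2.09 to 5.18 FPKM in MI (median 3.46), a log2 fold change of 0.88 (SE 0.21, adjusted p = 0.0143). Mcm7, of the same helicase, ran from 1.66 to 1.81 FPKM in control and from 2.58 to 4.34 FPKM in MI (0.65, SE 0.17, adjusted p = 0.0146). Neither gene's groups overlapped. Inhibitors of division rose in the same libraries: Cdkn2b (1.23) and Cdkn1a (1.45), the latter not without any 1 library other than control 4 and MI 6. The count was 7 without MI 5 and moved by more than 1.5 times without control 2, control 6 or MI 3 as well (lowest 9).

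The promoters of Mcm6 and Mcm7 are shown because they held the searched E2F site, TTTGGCGC or TTTCCCGC on either strand, by which E2F factors are known to switch on replication genes. Of 24 cell division genes with a RefSeq promoter 4 held it (Mcm3, Mcm5, Mcm6 and Mcm7), against 1.80% of all 27025 promoters and 3.20% of those of genes tested. Each sequence is the 250 bases before the RefSeq start, minus strand of GRCm38.p6, with matches in capitals: Mcm6 from chr1:128359706-128359955, with 2 matches, and Mcm7 from chr5:138171884-138172133, with 1.
Mcm6: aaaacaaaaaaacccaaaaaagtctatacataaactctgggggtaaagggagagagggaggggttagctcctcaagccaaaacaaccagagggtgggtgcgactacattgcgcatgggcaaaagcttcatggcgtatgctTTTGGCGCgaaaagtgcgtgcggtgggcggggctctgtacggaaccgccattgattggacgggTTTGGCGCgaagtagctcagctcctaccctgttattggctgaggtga
Mcm7: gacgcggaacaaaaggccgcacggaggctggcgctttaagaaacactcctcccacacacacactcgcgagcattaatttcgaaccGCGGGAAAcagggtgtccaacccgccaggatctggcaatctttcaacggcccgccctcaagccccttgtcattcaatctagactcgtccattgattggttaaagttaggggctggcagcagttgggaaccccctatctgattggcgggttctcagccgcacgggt
E2f1 itself rose by 0.66 (SE 0.18, adjusted p = 0.0157), from 0.179 to 0.392 FPKM in control to 0.579 to 1.92 FPKM in MI.

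Cell death genes rose in part. Stress response and immediate early genes rose about as often as all genes tested, of which 16.5% were higher on both scales. Of 20 BCL2 family and other cell death genes 9 rose and 0 fell (median 0.67 and 0.41): they included the survival gene Bcl2a1b (2.02), the caspases Casp8 (0.75) and Casp12 (1.01), and the pore former Gsdmd (0.97). The count was 3 without MI 5 and moved by more than 1.5 times without control 2, control 5, MI 1 or MI 3 as well (lowest 4). Of 28 genes of the integrated stress response and oxidative defence 5 rose (Gdf15, Atf4, Hmox1, Ddit3 and Sesn2) and 2 fell. Gdf15, a stress hormone, ran from 0.0284 to 0.456 FPKM in control and from 1.13 to 15.4 FPKM in MI (1.80, SE 0.47, adjusted p = 0.0148). The 2 that fell were the mitochondrial superoxide dismutase Sod2 (-0.42) and the glutathione transferase Gstm1 (-0.29), with 1 lower without any 1 of control 2 to 6, MI 1, MI 2 or MI 5. The higher count was 1 without MI 5 and moved by more than 1.5 times without control 1, 3, 5 or 6 or MI 3 as well. Of 29 immediate early genes 5 rose, among them the cytokine feedback gene Socs3 (1.36), and 0 fell. That count was 2 without MI 5 and 3 or more without any other 1 library, moving by more than 1.5 times without control 1, control 6, MI 2 or MI 3.

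Enzymes of prostaglandin synthesis differed in direction. Of 16 genes 6 rose and 1 fell (median 0.47 and 0.24), with 6 or 7 higher without any 1 library. Ptgis, prostacyclin synthase, ran from 3.33 to 5.06 FPKM in control (median 4.24) and from 11.3 to 66.7 FPKM in MI (median 29.2), a log2 fold change of 2.54 (SE 0.54, adjusted p = 0.0139). Ptgds, one of 2 prostaglandin D synthases, ran from 117 to 240 FPKM in control (median 161) and from 46.1 to 119 FPKM in MI (median 82.3), a log2 fold change of -0.98 (SE 0.22, adjusted p = 0.0139). The other, the haematopoietic Hpgds, rose by 1.00 (SE 0.26, adjusted p = 0.0147). The groups were separate in Ptgis and Hpgds and overlapped in Ptgds through MI 5 at 119 FPKM.

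Some groups had no or few calls on both scales. Cytosolic ribosomal protein genes were higher in 20 of 34 on the deposited scale (median 0.47) and in 1, Rpl3 (1.07), on both scales (median 0.08 after median-ratio scaling), with 2 on both scales without control 2 or control 4 and 4 without MI 4. Of 17 ubiquitin ligase and autophagy genes of muscle loss 0 were called on both scales (1 higher on the deposited scale, Sqstm1 at 0.46, and 3 lower after median-ratio scaling). Red blood cell and liver markers had 0 calls by limma, and none of the 6 red blood cell or 2 liver markers tested had an unadjusted p below 0.05. No thymus marker was tested, since all 7 had a mean below 0.5 FPKM. Long non-coding RNAs stood apart from these groups. Of 10 tested 5 rose, against 16.5% of all genes, and the count was 4 or 5 without any 1 library. Among them were the maternally expressed Meg3 (1.53) and Rian (0.94) and the small nucleolar RNA host genes Gas5 (1.01) and Snhg12 (0.78). Dnm3os (0.75), which runs antisense to another gene, did not pass without any 1 control, MI 1, MI 2 or MI 4 (adjusted p up to 0.0630, and 0.101 after median-ratio scaling), and the strand setting of the counting is not known here.

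The MI hearts differed from each other in most of these groups. After median-ratio scaling, MI 6 had the lowest mean of the 6 MI libraries in 27 of 51 gene lists and the highest in 15, and MI 5 the lowest in 17 and the highest in 17. In fatty acid oxidation the mean relative to control, on the log2 scale, was -1.47 in MI 5, -0.22 in MI 6 and -0.64 to -1.0 in the others, with controls from -0.17 to 0.21. In the TGF-beta family it was 1.13 in MI 5, 0.29 in MI 6 and 0.68 to 0.88 in the others, with controls from -0.06 to 0.05. Antibody and lymphocyte genes had another order, with 2.28 in MI 3, 1.30 in MI 5 and 0.01 in MI 6. Adipocyte markers had a further one, with 3.04 in MI 3, 2.52 in MI 1, 2.20 in MI 4 and 0.94 in MI 2, and at most -0.01 in MI 5 and MI 6.

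**Figure D5:**
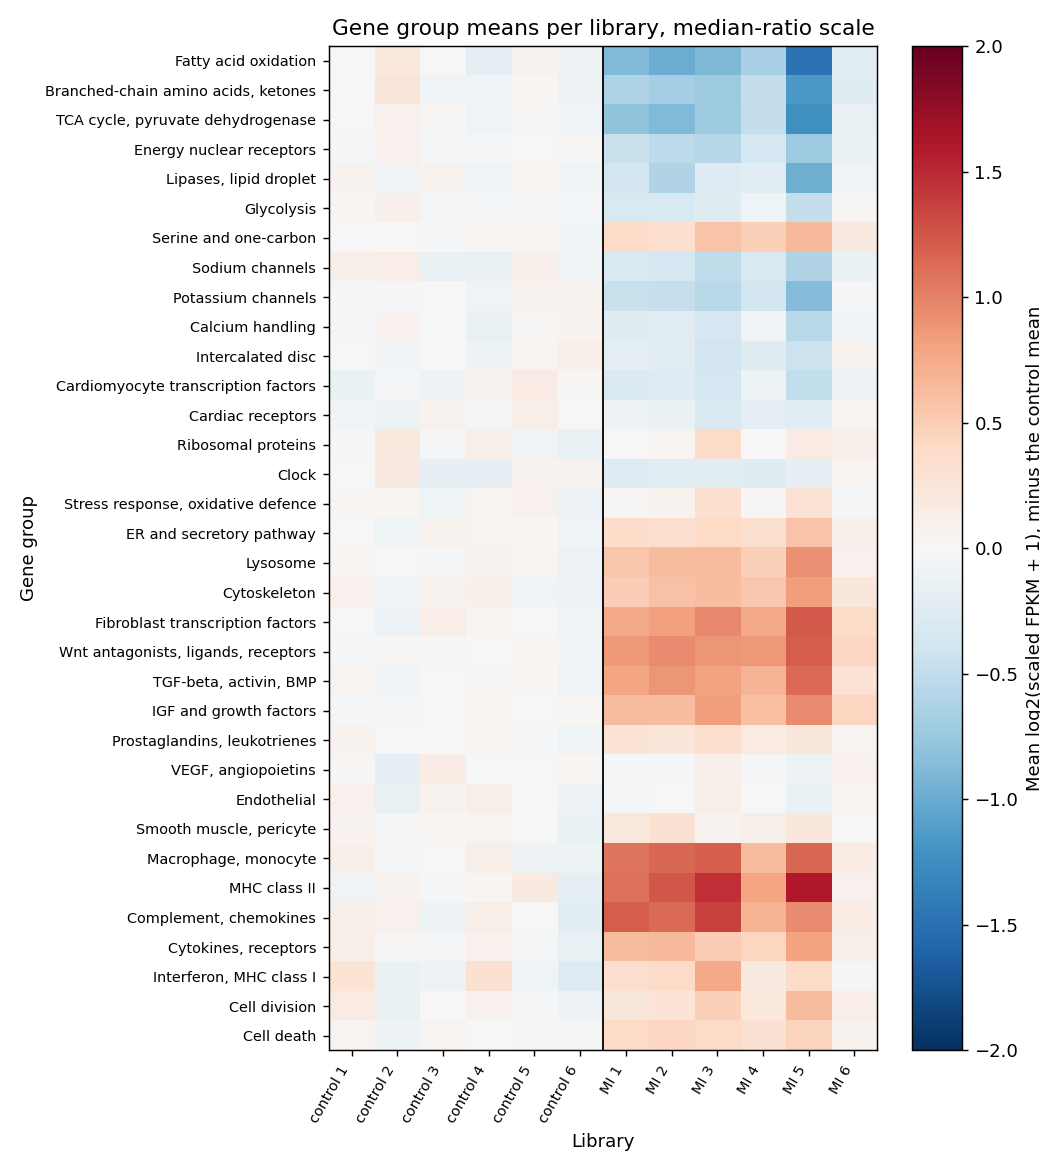
Mean log2(scaled FPKM + 1) of each gene group in each library after median-ratio scaling, minus the mean of the 6 controls (colour scale from -2 to 2), with groups as rows and libraries as columns. The line separates control from MI. MI 5 has deep colours in many groups, for example -1.47 for fatty acid oxidation, and MI 6 pale ones, with -0.22.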

How the data were processed

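Heart RNA of 12 libraries (6 MI, 6 control) was compared. Per the labels' protocols, RNA was extracted with Trizol, ribosomal RNA was removed and libraries were made with NEB kits. The authors deposited FPKM per Ensembl gene. The submitters' processing notes name GRCm38 and limma, while the aligner, the counter and the strand setting are not stated there. Gene names and positions came from GENCODE M21 for 34097 of 34150 genes (53 did not match), and promoter sequences from RefSeq, GRCm38.p6. The FPKM were analysed as log2(FPKM + 1), which understates changes of low genes, in the 13710 genes that averaged 0.5 FPKM or more across 18 libraries. The test was limma 3.58.1 in R 4.3.3 (mean-variance trend, 3 groups, contrast MI minus control) with Benjamini-Hochberg adjustment at 0.05, once on the deposited values and once after median-ratio scaling. The same fit was also run on simulated libraries in which a small set of genes was changed by known amounts. In these data far more genes were called. Tables and figures were made with Python 3.11.15, pandas 2.3.3 and matplotlib 3.10.9.

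Whole reads could be recovered from the FPKM steps for 97.9% to 98.4% of the values checked. Of 54 gene lists with 1279 entries, 1275 matched. Named genes were Nppa, Postn and Comp, the 15 highest and 15 lowest fold changes called on both scales averaging 1 FPKM or more, with every MI library beyond every control in that direction, outside the stress and matrix genes and families and with no predicted or clone name, and up to 5 called members of each list. The matrix families, set by gene name, included Sfrp, Angptl, Serpin and integrin genes. Other members given by value, and the genes and lists in the figures, were chosen after their values were seen. The comparison and the lists were chosen with earlier results of these data known. A total of 4 motifs was searched, which was not part of the planned tests; AAGGTCA and the E2F site were added after the first 2 gave 0 or 1 match in the lists, and the promoters printed were picked because they hold a match. Alternatives were another scaling, filter, pseudocount and prior, the run of library numbers, the replicate block, MI and control libraries alone, each library left out in turn, and, added after seeing the marker sums, MI 4 and MI 5 left out together. Some genes that met the naming rule are not reported here.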

Additional observations from a re-analysis of the deposited data

Results flagged for a closer look

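Of 432 groups of 6 tested, 26 had 1 library whose gap to its neighbour exceeded Dixon's 95% critical value; chance flags about 1 in 20 groups. In MI 6 these were low values of Comp (22.0 FPKM), Sfrp2 (17.1 FPKM), Igfbp3 (13.5 FPKM), Serping1 (47.8 FPKM) and Bcl2a1b (1.00 FPKM). In MI 5 they were Lpin1 (7.08 FPKM), the lung protease gene Napsa (8.74 FPKM) and the lung epithelial sum (1231 FPKM). In MI 4 they were the skeletal muscle genes Tnnt3 (17.1 FPKM) and Mylpf (24.3 FPKM) and the skeletal muscle sum (96.9 FPKM).

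Among controls, control 4 stood apart in Igkv14-126 (0.143 FPKM), Abi3bp (1.89 FPKM), Uchl1 (5.38 FPKM), Ctss (12.9 FPKM), Il1r1 (2.95 FPKM), Dkk3 (1.40 FPKM) and the Schwann cell sum (24.8 FPKM). Control 6 stood apart in Gpr22 (14.4 FPKM), Skil (2.67 FPKM) and Tagln (6.94 FPKM). Control 5 did so in Gas1 (5.16 FPKM) and Mpc1 (25.1 FPKM), control 1 in Suclg2 (27.4 FPKM) and Bckdhb (20.1 FPKM), and control 2 in Tnfrsf1b (2.002 FPKM).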

How the results depend on the processing

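The counts moved with the setting. The higher count on the deposited scale (5494) was 2257 after median-ratio scaling, 2020 among genes averaging 5 FPKM or more, 1810 after quantile normalization, 74 within the longest run, 0 without MI 4 and MI 5 together, and 2529 to 6102 without each library in turn. The lower count (440) was 2213, 272, 2371, 5 and 0 in the same settings, 234 with no filter, 279 with the run as a covariate, 754 with MI and control libraries only, and 127 to 615 without each library. On both scales the higher count (2257) was 835 at 5 FPKM, 72 within the run, 0 without MI 4 and MI 5, and 1248 to 2646 without each library. The lower count was 272, 5 and 0, with 233 unfiltered, 279 with the run as a covariate, 754 with MI and control libraries only, and 127 to 615 without each library. The cause was not tested. By the same replicate number, 1 of 6 pairs correlated above 0.1 (-0.00259 to 0.199) and 1 control correlated best with its own number; with the replicate block, 2301 genes were higher and 409 lower on both scales, of which 2114 and 379 were shared with the unblocked fit.

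Without MI 4 and MI 5 together, each gene list had 0 calls on both scales in the fit with the HXP libraries. The same MI and control libraries fitted without HXP gave 21 fatty acid, 12 branched-chain and 16 TCA cycle genes lower on both scales. That fit also gave 22 TGF-beta family, 33 macrophage and 10 MHC class II genes higher on both scales. With all libraries and median-ratio scaling alone, the lower counts were 17 for branched-chain amino acids, 21 for the TCA cycle and 7 for metabolic regulators. They were 8 for lipid genes, 13 for potassium channels and 9 for calcium handling. Without MI 4 and MI 5, in the fit with the HXP libraries, these median-ratio counts were 0, 1, 0, 1, 3 and 1 in the same order. The counts that follow are again those on both scales. Without MI 4 or MI 5 the ranges of counts were 0 to 15 for fatty acid oxidation, 3 to 10 for branched-chain amino acids, 1 to 8 for the TCA cycle, 0 to 3 for metabolic regulators, 2 to 3 for glycolysis, 1 to 6 for potassium channels, 2 to 4 for calcium handling, 9 to 15 for growth factors, 16 to 26 for the cytoskeleton, 13 to 17 for secretory genes, 1 to 5 for stress responses, 13 to 22 for lysosomes, 13 to 30 for macrophages, 1 to 9 for MHC class II, 1 to 6 for interferon, 15 to 22 for complement, 1 to 4 for endothelium, 2 for lymphatics, 2 to 4 for mural cells, 7 to 18 for cell division, 2 to 6 for immediate early genes, 3 to 8 for cell death and 4 to 7 for cardiac stress genes. Of single genes, Vcl alone reversed, to -0.005 after median-ratio scaling. At 76.0 to 81.1 M reads, genes under 0.5 FPKM were not tested.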

Other observations

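Adipocyte markers differed among MI hearts. Their sum was 76.4 to 93.1 FPKM in control and 69.7 to 573 FPKM in MI, with MI 3 the highest and MI 5 the lowest. Of 9 markers tested 1 was higher on both scales (median 1.36 and 1.25), against 16.5% of all genes. The count ran from 0 to 2 without any 1 library, so that it changed without each library other than MI 5. Schwann cell and neuronal markers summed to 16.3 to 24.8 FPKM in control and 29.6 to 68.3 FPKM in MI, without overlap, and 1 of 4 tested was higher on both scales (2 without MI 4 or MI 6).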
